A study of Mus musculus with 8 samples.

Results

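Nuclear lamina, nuclear envelope, nuclear pore and nuclear transport transcripts were compared between wild type lenses and lenses that express dnBrg1, a dominant-negative form of the chromatin remodeling ATPase Brg1. The members were taken from the array annotation by a rule on gene symbols that uses no measured values, although the rule was set with earlier results of these data known: all genes named Nup followed by a digit, Kpna, Kpnb, Ipo or Xpo, and a list of lamins, inner membrane proteins, SUN and nesprin genes, Tor1a, Ran, its regulators and Rae1. Each probe set had to name 1 gene alone. This gave 101 probe sets of 51 genes out of 22626 probe sets and 12393 genes. Tpr, of the nuclear basket, was listed too but was not analysed here, and 2 further probe sets that name a member together with another gene (Ipo4 with Tm9sf1, and Xpo4 with Lats2) were left out.

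Lenses came from mouse embryos of a mixed background at embryonic day 15.5 (E15.5), 4 of them wild type and 4 dnBrg1. In the dnBrg1 lenses the αA-crystallin promoter drives a FLAG-tagged, ATPase-dead Brg1 in postmitotic lens fiber cells. The transgenic mice come from 1 founder line and carry the transgene on 1 allele, and the wild type embryos were littermates. According to their descriptions, the wild type samples and the first 2 dnBrg1 replicates are polysome bound RNA and dnBrg1 replicates 3 and 4 are total RNA, whereas the molecule entry of all 8 samples reads total RNA.

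The nuclear lamina is a meshwork of A-type and B-type lamins under the inner nuclear membrane, to which LEM-domain proteins and the lamin B receptor are attached. SUN proteins of the inner membrane and nesprins of the outer membrane form the LINC complex, which joins the lamina to the cytoskeleton. Nuclear pores are built from nucleoporins that are arranged in rings, and importins, exportins and the small GTPase Ran carry cargo through them. Lens fiber cells are known for losing their nuclei as they mature, and so the lamina, envelope and pores are taken apart in the center of the lens during late embryonic development.

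Levels are given as log2 intensity, and a difference is the mean of the dnBrg1 samples minus that of the wild type samples on this log2 scale, ± its standard error (where ± marks an SD, this is said). The test was limma's moderated test, and its p-values were adjusted over all 22626 probe sets by the Benjamini-Hochberg method, with a probe set called at an adjusted p under 0.05. Where a gene has several probe sets, the brightest stands for the gene and the others are called dimmer. In RNA from whole lenses, fewer cells of a type and less RNA per cell cannot be told apart.

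Array medians lay between 196.9 and 209.1 in linear intensity. Smarca4, which encodes Brg1, was higher in every dnBrg1 sample with its dimmer probe set (log2 intensity 7.38 ± 0.47 in wild type and 9.73 ± 0.10 in dnBrg1, SD, n = 4 each) and did not pass with the brighter one (difference -0.24 ± 0.11, adjusted p = 0.12). The 8 measured lens fiber markers were all at or above the median of all probe sets. Their summed linear level was 92994 to 101470 in wild type and 101519 to 110203 in dnBrg1 lenses. Cryaa, Crybb1 and Cryba1 averaged 14.29, 14.39 and 14.58 in log2 intensity. The arrays' highest values were 14.57 to 14.64, and near them a difference may be compressed. Bfsp1 alone was called, as higher, from 12.05 to 13.59 on average (difference 1.54 ± 0.16, adjusted p = 8.5e-05). The other fiber markers were not called, and Dnase2b lay in the other direction (-0.63 ± 0.31, adjusted p = 0.13). The 5 measured retina markers summed to 7277 to 9556 in wild type and 4495 to 5274 in dnBrg1 lenses, with 3 called lower. The 4 macrophage markers summed to 3888 to 5070 in wild type and 1580 to 2408 in dnBrg1 lenses. Csf1r was called lower (difference -2.13 ± 0.19, adjusted p = 4.8e-05). Cd68, Adgre1 and Mrc1, at 0.11, -0.54 and 0.08, were not called. Of 7 markers of proliferating cells, 2 were called higher and 1 lower, and their sums were 13817 to 16201 and 14856 to 18631. None of the 5 mesenchyme markers was called. Their sums were 4232 to 7292 in wild type and spread from 3698 to 11839 in dnBrg1 lenses, where replicates 1 and 4 had the highest levels of Col1a1, Col1a2, Col3a1 and Lum. The 5 lens epithelium markers summed to 10740 to 12193 in wild type and 9384 to 10692 in dnBrg1 lenses. Cdh1 and Wls were called higher, Pdpn and Npnt were called lower, and Foxe3 was not called. The part of these tissues and cells in the results below was not tested. The arrays also differed in how much more signal their control transcripts gave at the 3' end than at the 5' end. This 3' minus 5' difference was 1.59 ± 0.58 for Gapdh and 2.50 ± 0.48 for β-actin in wild type (SD, n = 4), against 0.67 ± 0.02 and 0.58 ± 0.06 in dnBrg1 samples (SD, n = 4). Both groups were apart for both controls (two-sided exact permutation p = 0.029, the smallest that 70 assignments allow; Benjamini-Hochberg adjusted p = 0.029). Wild type replicate 3 had the smallest difference of its group for both controls and replicate 2 the largest. A second fit took the mean of both differences as a covariate, named the control covariate below. It almost follows the genotype, so what it takes up cannot be told apart from the genotype itself. The median standard error over all probe sets was 0.29 in this fit and 0.15 without the covariate. A call can thus be lost in it without a smaller difference.

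Among the members, 29 probe sets were upregulated and 14 were downregulated in dnBrg1 lenses, or 42.6% of 101, where 40.8% of all probe sets were called (19.8% higher and 21.0% lower). On 1 probe set a gene, 10 genes were upregulated and 9 downregulated, or 37.3% of 51, where 40.7% of all genes were called (17.5% higher and 23.3% lower). The 32 other genes were not called. The share of members called was thus near the background. The median difference was -0.08 for the member genes and -0.11 for all genes, and the median size of the change was 0.32 and 0.34. The groups did not overlap for 44 member probe sets, 43.6% against 40.1% of all probe sets. With the control covariate, 5 member probe sets were called higher and 3 lower, 7.92% where the same fit called 6.37% of all probe sets (3.57% higher and 2.80% lower). On 1 probe set a gene it called 5 of 51, or 9.8%, against 6.33% of all genes. Of the 43 probe sets called without it, 6 were called again and 12 had the opposite sign.

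Of 18 nuclear pore genes, 7 were upregulated and 5 were downregulated, or 66.7%, where 40.7% of all genes were called. Of 18 transport receptors 1 was upregulated and 2 were downregulated, or 16.7%. Among 7 genes of the lamina and inner membrane 1 rose and none fell, among 5 LINC and torsin genes 2 fell and none rose, and among 3 genes of the Ran cycle 1 rose. The difference between these shares was not tested.

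**Figure D1:**
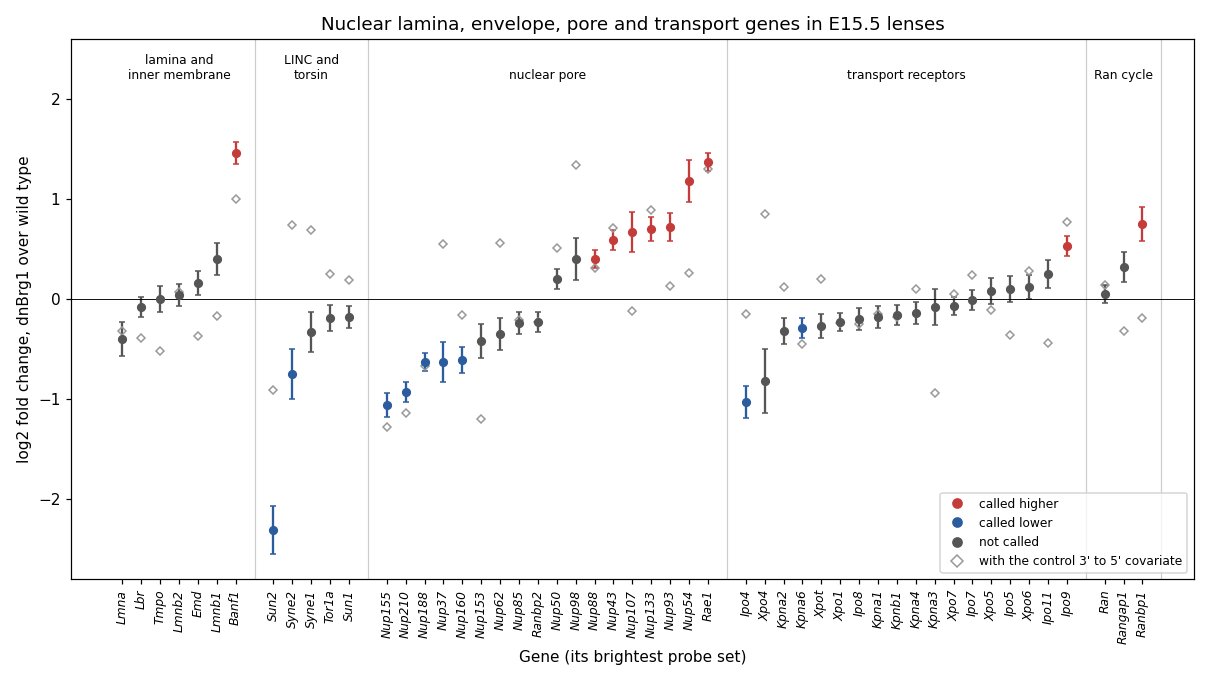
Difference between dnBrg1 and wild type as log2 fold change (vertical axis) for the 51 member genes with their brightest probe set (horizontal axis), grouped by role. Circles are differences with their standard error, red for called higher, blue for called lower and grey for not called. Open diamonds give the value with the control covariate. Sun2 at -2.31 is the lowest and Banf1 at 1.46 the highest value, and called genes are densest among the nuclear pore genes.

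In all 21 alternative settings, 4 member genes were called in the same direction: Banf1 and Rae1 rose, and Nup155 and Nup210 fell. Sun2, with the largest difference of any member gene, was called in 20 of 21. Promoters of these 5 genes are shown because their differences carry the results below. Each is the 250 bases before the first base of the RefSeq transcript that starts farthest 5', on the GRCm38.p6 assembly, written 5' to 3' on the gene's strand. The windows are chr19:5366877-5367126 on the minus strand for Banf1, chr2:172999867-173000116 on the plus strand for Rae1, chr15:8109063-8109312 on the plus strand for Nup155, chr6:91116827-91117076 on the minus strand for Nup210, and chr15:79742537-79742786 on the minus strand for Sun2. Capitals mark matches on either strand to CCAAT (bound by NF-Y), GGGCGG (the GC box bound by Sp1), CCGGAAG (an ETS motif) and TTTCCCGC (an E2F motif). Matches overlap in Banf1, Nup155 and Sun2.
Banf1: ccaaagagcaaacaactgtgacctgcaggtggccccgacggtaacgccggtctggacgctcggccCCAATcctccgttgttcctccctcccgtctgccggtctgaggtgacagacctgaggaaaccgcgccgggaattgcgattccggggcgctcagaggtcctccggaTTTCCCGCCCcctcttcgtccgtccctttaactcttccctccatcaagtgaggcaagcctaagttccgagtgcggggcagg
Rae1: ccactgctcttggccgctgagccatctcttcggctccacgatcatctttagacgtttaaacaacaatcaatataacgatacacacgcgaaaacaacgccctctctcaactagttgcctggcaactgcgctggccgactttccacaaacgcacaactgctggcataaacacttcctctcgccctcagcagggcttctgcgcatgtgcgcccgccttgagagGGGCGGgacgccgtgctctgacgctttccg
Nup155: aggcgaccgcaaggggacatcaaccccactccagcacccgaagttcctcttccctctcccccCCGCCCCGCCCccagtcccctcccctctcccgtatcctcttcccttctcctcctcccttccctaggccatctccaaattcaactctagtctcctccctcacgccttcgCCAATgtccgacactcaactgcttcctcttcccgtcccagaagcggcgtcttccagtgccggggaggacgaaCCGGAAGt
Nup210: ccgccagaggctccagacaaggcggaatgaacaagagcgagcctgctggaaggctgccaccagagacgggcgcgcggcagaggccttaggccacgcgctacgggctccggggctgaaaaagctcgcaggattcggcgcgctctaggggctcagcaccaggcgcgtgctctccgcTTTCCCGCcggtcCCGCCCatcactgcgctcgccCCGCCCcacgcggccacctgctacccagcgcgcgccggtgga
Sun2: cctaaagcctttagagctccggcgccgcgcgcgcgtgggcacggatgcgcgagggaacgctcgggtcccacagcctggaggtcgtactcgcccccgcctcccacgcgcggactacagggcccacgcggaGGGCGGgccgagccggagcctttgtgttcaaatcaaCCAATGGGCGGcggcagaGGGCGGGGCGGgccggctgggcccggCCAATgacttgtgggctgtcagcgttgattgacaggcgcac

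Banf1 held CCAAT, the GC box on its opposite strand and TTTCCCGC, and Nup210 held the GC box and TTTCCCGC as well. Rae1 held the GC box alone, and Nup155 held CCAAT, the GC box and CCGGAAG. In Sun2 there were 2 CCAAT and 4 GC boxes. Over the 43 members with a promoter in the table, the GC box was found in 79.1%, against 42.7% of 17491 promoters of protein-coding genes. The other shares were 48.8% against 36.5% for CCAAT, 11.6% against 9.1% for CCGGAAG, and 7.0% against 1.2% for TTTCCCGC. Among the members these are 21, 5 and 3 genes. The differences between the motif shares, that of the GC box included, were not tested. The 34 member genes with a GC box include 8 that were called higher and 4 that were called lower. For all 51 member genes, with or without a promoter in the table, these counts were 10 and 9. Of all genes 17.5% were called higher and 23.3% lower. A link between the GC box and the calls was not tested. These are matches of letters in a fixed window, and binding was not measured.

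Lamins themselves were not called on their brightest probe sets. Lmna encodes lamins A and C. With its brightest probe set, wild type replicates 1 to 4 read 8.62, 8.67, 8.69 and 9.03 and dnBrg1 replicates 1 to 4 read 8.52, 8.04, 8.14 and 8.72. The groups overlapped, since dnBrg1 replicate 4 lay above 3 wild type samples (difference -0.40 ± 0.17, adjusted p = 0.091), and without that sample the decrease was called. The second, a dimmer Lmna probe set, read 7.22, 7.48, 7.80 and 7.42 in wild type and 8.13, 7.73, 7.74 and 8.06 in dnBrg1 lenses. It was called higher (difference 0.44 ± 0.15, adjusted p = 0.044), a call that was lost when any of 5 samples was left out (all but wild type replicate 3 and dnBrg1 replicates 2 and 3). The 2 other Lmna probe sets were below the median of all probe sets, at -0.16 and -0.15, and did not pass. Within the dnBrg1 group, the first and second Lmna probe sets were higher in replicates 1 and 4. These are the samples with the most collagen transcript, at 12.09 and 11.83 for Col1a1 against 8.22 and 8.83 in replicates 2 and 3, whose part in the Lmna values was not tested. With the control covariate the called probe set was at 0.15 (adjusted p = 0.85). The probe sets of Lmna thus gave no common direction.

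Lmnb1 encodes lamin B1, the B-type lamin that is found in most cell types. Its brighter probe set read 12.19, 11.99, 12.50 and 12.00 in wild type and 12.72, 12.81, 12.37 and 12.37 in dnBrg1 lenses. Only wild type replicate 3 lay among the dnBrg1 samples, and the difference did not pass (difference 0.40 ± 0.16, adjusted p = 0.07). Without that sample it was called higher. The dimmer probe set read 9.10, 8.92, 9.66 and 9.17 in wild type and 10.19, 10.24, 9.70 and 9.60 in dnBrg1 lenses. Lmnb1 was upregulated 1.65-fold with it (difference 0.72 ± 0.20, adjusted p = 0.018). The call was lost without dnBrg1 replicate 1 or 2, and with the control covariate the difference was -0.01. Both probe sets were highest in dnBrg1 replicates 1 and 2. Lmnb2, which encodes the second B-type lamin, was 10.11 on average in wild type and 10.15 in dnBrg1 lenses (difference 0.04 ± 0.11, adjusted p = 0.80).

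Lbr, Emd and Tmpo, which encode proteins of the inner membrane and lamina, did not pass the test. Lbr, the lamin B receptor and a sterol reductase, had a difference of -0.08 (95% confidence interval -0.32 to 0.15, adjusted p = 0.55). Emd, which encodes the LEM-domain protein emerin, was at 0.16 (95% confidence interval -0.12 to 0.44, adjusted p = 0.33). Tmpo, which encodes the lamina-associated polypeptides 2, had its brighter 2 probe sets at 0.00 ± 0.13 and 0.04 ± 0.11 and its dim ones at -0.11 and 0.05, none of which passed.

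Banf1 encodes the barrier-to-autointegration factor, a small DNA-binding protein that links chromatin to LEM-domain proteins when the nuclear envelope forms. Its brightest probe set read 10.35, 10.18, 10.59 and 10.32 in wild type and 11.79, 11.73, 11.96 and 11.81 in dnBrg1 lenses. The 2 groups were wide apart, and Banf1 was upregulated 2.75-fold (difference 1.46 ± 0.11, adjusted p = 2.8e-05). The second probe set rose from 9.22, 9.17, 9.45 and 9.20 to 10.63, 10.49, 10.77 and 10.60 (difference 1.36 ± 0.11, adjusted p = 2.9e-05). The third was at 9.15, 8.62, 9.72 and 9.23 in wild type and at 10.08, 10.08, 10.31 and 10.21 in dnBrg1 lenses (difference 0.99 ± 0.20, adjusted p = 0.004). Banf1 was the only 1 of the 27 member genes with several probe sets for which all were called in 1 direction. With the control covariate, the first 2 stayed called (differences 1.0 and 1.04, adjusted p = 0.033 and 0.035) and the third was at -0.20 (adjusted p = 0.67).

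The LINC complex differed most at Sun2, an inner membrane protein that binds nesprins in the space between the membranes. Sun2 read 10.01, 10.71, 9.47 and 10.36 in wild type and 7.87, 7.55, 8.0 and 7.87 in dnBrg1 lenses. Wild type samples were spread over a wide range, yet the lowest of them lay far above the highest dnBrg1 sample. Sun2 was downregulated 4.98-fold (difference -2.31 ± 0.24, adjusted p = 9.2e-05), and the call held with each sample left out. With the control covariate the difference was -0.91 and did not pass (adjusted p = 0.10; range over the alternatives 1.8e-05 to 0.10). Among the wild type samples, Sun2 was highest in replicate 2 and lowest in replicate 3, the samples with the largest and smallest control 3' minus 5' difference. Its paralog Sun1 did not pass with its brighter probe set (9.85, 10.15, 9.79 and 9.80 against 9.79, 9.58, 9.77 and 9.71; difference -0.18 ± 0.11, adjusted p = 0.23). The dimmer Sun1 probe set was at 0.48 ± 0.18 (adjusted p = 0.055).

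Nesprins of the outer nuclear membrane bind actin and motor proteins. Syne2, which encodes nesprin-2, read 8.61, 9.31, 8.07 and 9.10 in wild type and 8.02, 8.18, 7.72 and 8.16 in dnBrg1 lenses. The groups overlapped, since wild type replicate 3 lay below 2 dnBrg1 samples. Syne2 was called lower (difference -0.75 ± 0.25, adjusted p = 0.039), but the call was lost without any of the 7 samples other than wild type replicate 3, and with the control covariate the value was 0.74 (adjusted p = 0.18). Syne1, which encodes nesprin-1, was dim. Its brighter probe set was at -0.33 ± 0.20 (adjusted p = 0.21), and its dimmer one at 0.65 ± 0.19 was called higher (adjusted p = 0.021), a call lost without wild type replicate 1 or 4 or dnBrg1 replicate 2 or 4, and with the control covariate (1.13, adjusted p = 0.17). Tor1a, the torsin ATPase of the space between the membranes, read 10.14, 10.12, 9.67 and 9.90 against 9.85, 9.85, 9.81 and 9.58 and did not pass (difference -0.19 ± 0.13, adjusted p = 0.29).

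**Figure D2:**
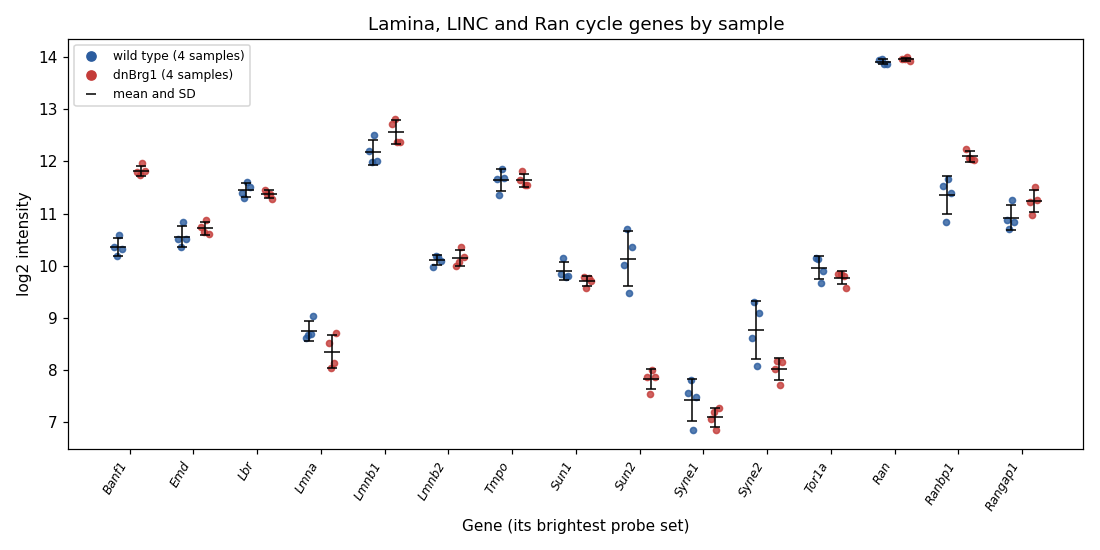
Log2 intensity (vertical axis) of the lamina, LINC, torsin and Ran cycle genes with their brightest probe set (horizontal axis) for each lens sample, blue for wild type and red for dnBrg1, with black bars for mean and SD (n = 4). Only Banf1, Sun2 and Ranbp1 have all dnBrg1 samples on 1 side of all wild type samples.

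Called nuclear pore genes went in both directions within the same structural parts, as calls did over all genes (17.5% higher and 23.3% lower). The parts were chosen after the values were seen. The outer rings of the pore are built from the Y complex, and 6 of its genes are members. Nup133, Nup107 and Nup43 were upregulated, Nup160 and Nup37 were downregulated, and Nup85 was not called. In the inner ring, Nup93 rose while Nup155 and Nup188 fell. Of the Y complex and inner ring genes, only Nup155 stayed called on its brightest probe set with the control covariate. Nup210, which encodes a glycoprotein anchored in the pore membrane, fell. The remaining 8 genes included 3 that rose (Nup54 of the central channel, the export factor Rae1, and Nup88 of the cytoplasmic side) and 5 that were not called.

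Nup133 read 10.44, 10.35, 10.23 and 10.68 in wild type and 11.02, 11.18, 11.21 and 11.08 in dnBrg1 lenses with its brightest probe set. The groups did not overlap, and the gene was upregulated 1.62-fold (difference 0.70 ± 0.12, adjusted p = 0.0013). The next probe set rose from 9.71, 9.43, 9.52 and 9.57 to 10.85, 10.97, 11.03 and 10.92 (difference 1.39 ± 0.10, adjusted p = 1.9e-05), and this was called in every alternative, with 1.25 under the control covariate (adjusted p = 0.023). A dim probe set rose by 1.67 ± 0.16 (adjusted p = 5.8e-05) and the dimmest, at 0.28 ± 0.23, did not pass (adjusted p = 0.36). The brightest and the dim probe set were at 0.89 (adjusted p = 0.092) and 1.25 (adjusted p = 0.076) under the control covariate and were not called there.

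Nup107, which joins Nup133 in the stem of the Y, read 9.05, 8.88, 9.51 and 8.82 in wild type and 9.41, 9.54, 10.10 and 9.89 in dnBrg1 lenses. Wild type replicate 3 overlapped with the lowest dnBrg1 sample. The increase (difference 0.67 ± 0.20, adjusted p = 0.022) was not called without wild type replicate 2 or 4 or dnBrg1 replicate 3 or 4, and was -0.12 with the control covariate. Nup43 of the short arm read 8.36, 8.36, 8.24 and 8.40 in wild type and 8.91, 8.83, 9.12 and 8.84 in dnBrg1 lenses. The samples of both groups were tight and apart (difference 0.59 ± 0.10, adjusted p = 0.0017; 0.71 and adjusted p = 0.11 with the control covariate), whereas its dim probe set was at -0.42 ± 0.19 (adjusted p = 0.11).

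Nup160 of the long arm of the Y read 10.65, 10.90, 10.59 and 10.97 in wild type and 10.27, 10.33, 10.02 and 10.03 in dnBrg1 lenses. It was downregulated 1.53-fold, with no overlap (difference -0.61 ± 0.13, adjusted p = 0.0046), and was at -0.16 with the control covariate (adjusted p = 0.76). Nup37 read 10.37, 10.85, 9.81 and 10.65 against 9.77, 9.68, 9.88 and 9.83, and wild type replicate 3 lay among the dnBrg1 samples. Its decrease (difference -0.63 ± 0.20, adjusted p = 0.031) was lost without any of the 7 other samples, and was 0.55 with the control covariate (adjusted p = 0.20). Nup85 was at -0.24 ± 0.11 and did not pass (adjusted p = 0.12).

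Nup155, an inner ring scaffold protein that contacts the pore membrane, had the largest decrease among the pore genes. Its brighter probe set read 11.76, 11.76, 11.94 and 11.56 in wild type and 10.78, 10.88, 10.58 and 10.53 in dnBrg1 lenses. The groups were well apart, and Nup155 was downregulated 2.08-fold (difference -1.06 ± 0.12, adjusted p = 0.00017). It stayed called with the control covariate (-1.28, adjusted p = 0.04). The dimmer probe set read 8.68, 9.26, 7.99 and 9.02 against 8.19, 8.45, 8.48 and 8.41. Here wild type replicate 3 was below all dnBrg1 samples, the difference did not pass (difference -0.36 ± 0.24, adjusted p = 0.27), and its sign turned with the control covariate (1.10, adjusted p = 0.053). Nup188 read 9.50, 9.60, 9.61 and 9.45 in wild type and 8.81, 8.93, 8.95 and 8.94 in dnBrg1 lenses. This was a decrease of similar size in each sample (difference -0.63 ± 0.09, adjusted p = 0.00061; -0.67 and adjusted p = 0.095 with the control covariate). Nup93, which joins the inner ring subcomplexes, went the other way, from 9.46, 9.44, 10.02 and 9.60 to 10.29, 10.38, 10.46 and 10.26 (difference 0.72 ± 0.14, adjusted p = 0.003). Its value with the control covariate was 0.13 (adjusted p = 0.81).

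Nup210 read 11.60, 11.67, 11.88 and 11.66 in wild type and 10.71, 10.86, 10.76 and 10.78 in dnBrg1 lenses. No dnBrg1 sample came near the wild type range, and the gene was downregulated 1.90-fold (difference -0.93 ± 0.10, adjusted p = 0.00012). It stayed called with the control covariate (-1.14, adjusted p = 0.025).

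Rae1 encodes an mRNA export factor that binds Nup98 at the pore. Rae1 read 9.10, 9.17, 9.25 and 9.13 in wild type and 10.53, 10.60, 10.57 and 10.44 in dnBrg1 lenses. Both groups were narrow and far apart, and Rae1 was upregulated 2.59-fold (difference 1.37 ± 0.09, adjusted p = 1.5e-05). Its value hardly moved with the control covariate (1.30, adjusted p = 0.016). Its partner Nup98 was dim, read 6.33, 7.47, 6.71 and 6.83 against 7.17, 7.19, 7.27 and 7.31, and did not pass (difference 0.40 ± 0.21, adjusted p = 0.16).

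Nup54 and Nup62 line the central channel with phenylalanine-glycine repeats. Nup54 read 7.74, 7.78, 8.65 and 7.74 in wild type and 9.30, 9.34, 9.07 and 8.92 in dnBrg1 lenses. Wild type replicate 3 stood apart from its group without reaching the dnBrg1 samples (difference 1.18 ± 0.21, adjusted p = 0.002; 0.26 and adjusted p = 0.76 with the control covariate). Of 2 dimmer Nup54 probe sets, 1 was called higher at 0.46 ± 0.12 (adjusted p = 0.013; 0.52 and adjusted p = 0.30 with the control covariate) and the other was at -0.19 ± 0.11 (adjusted p = 0.21).

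Nup62 was 1 of 2 member genes with opposite calls among their probe sets. Its brightest probe set read 11.25, 11.66, 10.86 and 11.40 against 10.88, 11.01, 11.09 and 10.81 and did not pass (difference -0.35 ± 0.16, adjusted p = 0.12). The next fell from 11.30, 11.71, 10.94 and 11.56 to 10.61, 10.67, 10.77 and 10.67 (difference -0.70 ± 0.16, adjusted p = 0.0072). A further one rose from 10.37, 10.34, 10.40 and 10.37 to 10.85, 11.03, 11.13 and 10.95 (difference 0.62 ± 0.10, adjusted p = 0.00082). The fourth, a dim one, was called lower at -0.53 ± 0.18 (adjusted p = 0.039). When single samples were left out, this call held only without wild type replicate 1 or 3. With the control covariate all 4 were above 0, from 0.20 to 0.56, and none passed. No direction can thus be given for Nup62.

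The other pore genes were those of the cytoplasmic side and the nuclear basket. Nup88, which anchors export factors on the cytoplasmic side, rose from 10.83, 10.73, 10.78 and 10.68 to 11.17, 11.24, 11.08 and 11.10 (difference 0.40 ± 0.09, adjusted p = 0.0073; 0.31 and adjusted p = 0.39 with the control covariate). Ranbp2, the SUMO ligase of the cytoplasmic filaments, was below wild type in every dnBrg1 sample with both probe sets. The brighter was at -0.23 ± 0.10 and did not pass (adjusted p = 0.088), and the dimmer was called lower at -0.37 ± 0.12 (adjusted p = 0.037), but not when any of 5 samples was left out (all but wild type replicates 1 and 3 and dnBrg1 replicate 2), and it was at 0.02 with the control covariate. Nup50 and Nup153 of the nuclear basket were not called, with brightest probe sets at 0.20 ± 0.10 (adjusted p = 0.15) and -0.42 ± 0.17 (adjusted p = 0.071). Nup153 was called lower with the control covariate (difference -1.20, adjusted p = 0.048).

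**Figure D3:**
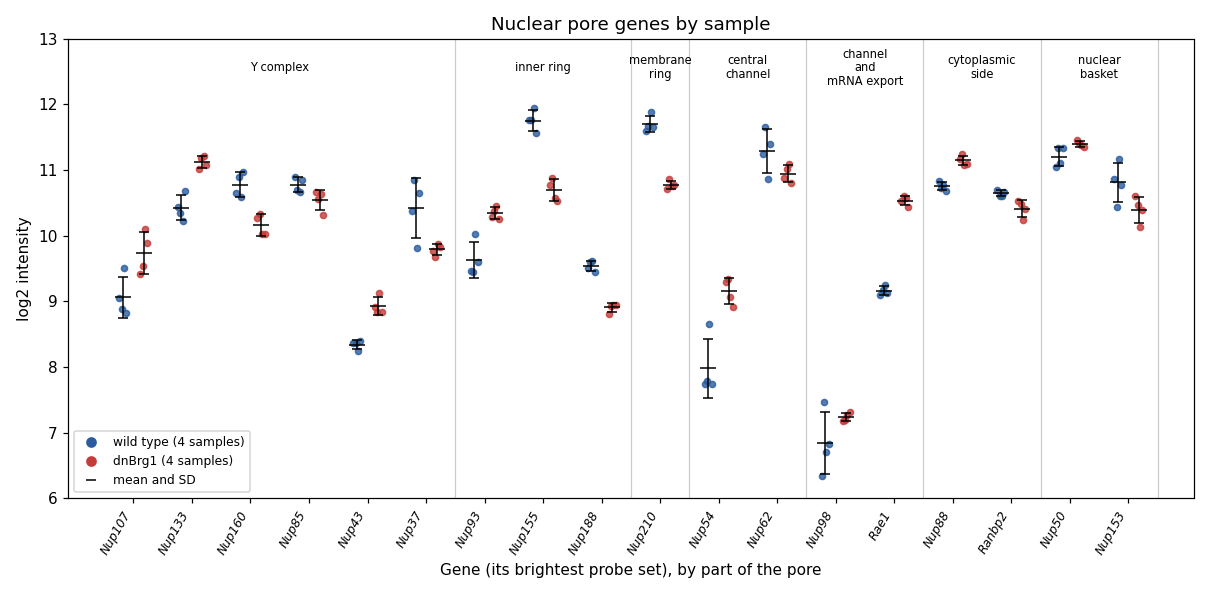
Log2 intensity (vertical axis) of the 18 nuclear pore genes with their brightest probe set (horizontal axis), grouped by part of the pore, for each lens sample, blue for wild type and red for dnBrg1, with black bars for mean and SD (n = 4). The Y complex and the inner ring each hold genes that were higher and genes that were lower in dnBrg1 lenses.

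Transport receptors differed little on their brightest probe sets, with a median difference of -0.15. The 5 importin α genes (Kpna), which bind nuclear localization signals, lay between -0.32 and -0.08. Of these, Kpna6 alone was called (12.24, 12.29, 12.47 and 12.38 in wild type against 12.08, 12.09, 11.91 and 12.12 in dnBrg1 lenses; difference -0.29 ± 0.10, adjusted p = 0.041), and it lost its call without any of 6 samples (all but wild type replicates 1 and 2) and with the control covariate (-0.45, adjusted p = 0.25). Kpnb1, the importin β that carries importin α through the pore, was at -0.16 ± 0.10 (adjusted p = 0.21). None of the 6 exportin genes was called, with values from -0.82 to 0.12. The lowest of them was Xpo4, which was dim and spread from 7.17 to 8.85 over the wild type samples (adjusted p = 0.067). Xpo1, the exportin for leucine-rich export signals, was at -0.23 ± 0.09 (adjusted p = 0.07).

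Importins named Ipo carry cargo without importin α, and 2 of 6 were called. Ipo9, an importin of histones and actin, read 9.94, 9.96, 9.73 and 9.95 in wild type and 10.31, 10.41, 10.53 and 10.44 in dnBrg1 lenses. The groups did not overlap (difference 0.53 ± 0.10, adjusted p = 0.0026; 0.77 and adjusted p = 0.069 with the control covariate). Ipo4, an importin of histones and ribosomal proteins, was the other gene with opposite calls. With its brighter probe set it fell from 12.00, 12.20, 11.40 and 12.01 to 10.92, 10.93, 10.90 and 10.75 (difference -1.03 ± 0.16, adjusted p = 0.001). With the dimmer it rose from 9.49, 9.54, 9.28 and 9.63 to 9.73, 9.96, 9.97 and 9.92 (difference 0.41 ± 0.11, adjusted p = 0.016). Both sets of values were free of overlap and opposite in sign, so Ipo4 has no direction here. They were -0.15 and 0.72 with the control covariate, and neither passed (adjusted p = 0.75 and 0.11).

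Ran is the GTPase whose gradient gives nuclear transport its direction. Its brightest probe set lay between 13.86 and 13.99 in all 8 samples (difference 0.05 ± 0.09, adjusted p = 0.69). This is near the upper end of the scale, since the arrays' highest values were 14.57 to 14.64, and there a difference may be compressed. Another 3 bright Ran probe sets were at 0.00, -0.10 and 0.00, and the dimmest at -0.19 did not pass (adjusted p = 0.14). A further, somewhat dimmer one was called higher (12.48, 12.29, 12.84 and 12.48 against 12.97, 12.98, 12.88 and 12.93; difference 0.42 ± 0.13, adjusted p = 0.025), but not when any of 6 samples was left out (all but replicate 3 of each group). Its value with the control covariate was -0.18.

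Ranbp1, which helps to release Ran from exported receptors, read 11.52, 10.83, 11.67 and 11.40 in wild type and 12.24, 12.07, 12.05 and 12.02 in dnBrg1 lenses. All dnBrg1 samples were above all wild type samples (difference 0.75 ± 0.17, adjusted p = 0.0075). Its value with the control covariate was -0.19 (adjusted p = 0.70). Rangap1, which activates GTP hydrolysis by Ran, did not pass with its brighter probe set (difference 0.32 ± 0.15, adjusted p = 0.12). Its dimmer probe set rose from 8.57, 8.55, 8.96 and 8.78 to 9.27, 9.18, 9.70 and 9.34 (difference 0.66 ± 0.15, adjusted p = 0.0059; 0.23 and adjusted p = 0.71 with the control covariate).

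Different probe sets for 1 gene could be called differently. Among the 27 genes with several, 18 had some but not all called and in 1 direction (66.7%, against 46.9% of the 4956 genes on the array with several). Another 6 had none called (22.2% against 29.2%), 1 had all called in 1 direction (3.7% against 10.1%), and 2 had opposite calls (7.4% against 13.8%). Of the 50 dimmer probe sets, 19 were called higher (38%) and 5 lower. Over the 7987 dimmer probe sets of all genes, 24.9% were called higher and 18% lower. In 14 of the 20 genes whose brightest probe set was not called, a dimmer one was, or 70%, against 46% of 2677 such genes on the array. The differences between these shares were not tested.

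Dimmer probe sets were called in several transport receptors for which the brightest was not. The largest increase of any member probe set was of this kind, in Kpna1, which read 6.95, 6.43, 7.71 and 7.30 in wild type and 9.06, 9.08, 9.15 and 9.70 in dnBrg1 lenses (difference 2.15 ± 0.26, adjusted p = 0.00023). The 4 other Kpna1 probe sets lay between -0.29 and -0.09 and were not called. With Kpnb1, 2 of 4 probe sets were called higher (differences 0.78 and 1.54). A dimmer probe set was also called higher for Ipo8 (1.06 ± 0.27, adjusted p = 0.012), Kpna4 (1.01 ± 0.22, adjusted p = 0.0055), Ipo5 (0.83 ± 0.12, adjusted p = 0.00061) and Xpo7 (0.32 ± 0.10, adjusted p = 0.025). The Xpo7 call was lost when wild type replicate 2 or 4 or dnBrg1 replicate 1, 2 or 4 was left out. Kpna3 differed in the other direction, with dimmer probe sets at -0.74 ± 0.21 (adjusted p = 0.019) and -1.10 ± 0.18 (adjusted p = 0.0011). None of these was called with the control covariate.

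**Figure D4:**
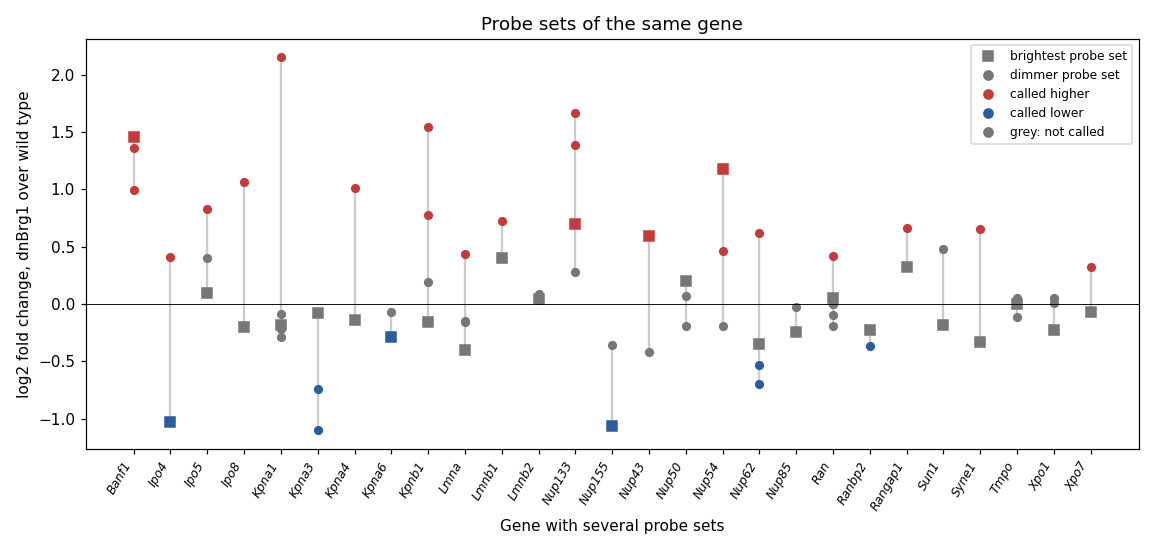
Log2 fold change of dnBrg1 over wild type (vertical axis) for each probe set of the 27 member genes with several (horizontal axis). Squares are the brightest probe set of a gene and circles the dimmer ones, in red for called higher, blue for called lower and grey for not called, and a line spans each gene. Ipo4 and Nup62 hold both red and blue, and Kpna1 has a single probe set at 2.15 above 4 others near 0.

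Across the member probe sets that were called, wild type samples were not equally far from the dnBrg1 mean. Wild type replicate 3 was the nearest in 25 of 43 (58.1%) and replicate 2 the farthest in 23 (53.5%). Over all 9229 called probe sets these shares were 50.4% and 45.6%. These are the samples with the smallest and the largest control 3' minus 5' difference. With only wild type replicates 1 and 4 as the wild type group, 29 member probe sets were called higher and 17 lower, and 12 member genes higher and 11 lower. Over all probe sets this fit called 4454 higher and 4523 lower, against 4484 and 4745 with all samples. Without wild type replicate 3, 4978 of all probe sets were called higher and 5194 lower. Among the members, 10 probe sets passed without it that did not pass with all samples. They were the brightest of Lmnb1 (0.51), Syne1 (-0.52), Nup62 (-0.49), Ipo11 (0.38), Xpo4 (-1.11), Xpot (-0.33) and Rangap1 (0.44), and dimmer ones of Sun1 (0.65), Nup155 (-0.61) and Nup43 (-0.61). Nup43 then had opposite calls. Nup153 (-0.54) and Nup98 (0.61) passed without wild type replicate 2, and Lmna (-0.52) without dnBrg1 replicate 4.

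Other genes of the envelope, pore and transport machinery were taken from a separate list of 42, of which 37 had a probe set of their own. Of these, 10 were called higher and 10 lower, or 54.1%, where 40.7% of all genes were called (17.5% higher and 23.3% lower), with a median difference of -0.07 against -0.11 over all genes. The counts by group below are to be read against the same shares. Lamin processing was changed in all 5 of its genes, in both directions: Fnta, Rce1 and Icmt rose (differences 0.80, 0.88 and 0.55), and Fntb and Zmpste24 fell (-0.90 and -0.96). Fnta and Fntb encode the subunits of farnesyltransferase, and the others encode the enzymes that cleave and methylate farnesylated lamins. The Icmt call was lost when any of 5 samples was left out (all but wild type replicate 3 and dnBrg1 replicates 1 and 2). Only Fnta stayed called among these 5 with the control covariate (1.23, adjusted p = 0.022), and Rce1, Icmt, Fntb and Zmpste24 were then at 0.51, -0.29, -0.42 and -0.33, with the sign of Icmt turned. Of 11 further lamina and envelope genes, 2 rose and 4 fell. Among them Vrk1, the kinase that phosphorylates the Banf1 protein, was upregulated 3.15-fold, from 8.60 ± 0.35 to 10.26 ± 0.10 (SD, n = 4 each; difference 1.66 ± 0.17, adjusted p = 8.4e-05). Syne4, which encodes nesprin-4, Lemd2, a LEM-domain protein, and the phosphatidate phosphatase gene Lpin1 were downregulated by differences of -1.19 ± 0.18 (adjusted p = 0.00069), -1.13 ± 0.11 (adjusted p = 7.1e-05) and -1.04 ± 0.20 (adjusted p = 0.0028).

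Of 9 further pore genes, 1 rose and 2 fell. Sec13, shared by the Y complex and secretory vesicles, was the one that rose (difference 0.89 ± 0.18, adjusted p = 0.0038), and Ndc1 and Nupl2 fell (-0.39 and -0.69), with the call of Ndc1 lost without wild type replicate 1, 2 or 3 or dnBrg1 replicate 1 or 4. Of 12 further transport genes, 4 rose and 2 fell. The largest increase was in Rangrf, a Ran-binding protein, at 2.42-fold (difference 1.27 ± 0.15, adjusted p = 0.00019; 2.03 and adjusted p = 0.013 with the control covariate). With the control covariate, 3 genes of the list were called higher and 1 lower. Vrk1 was then at 0.80 (adjusted p = 0.11), Lemd2 at -0.95 (adjusted p = 0.063), Syne4 at -0.50 (adjusted p = 0.45), Lpin1 at -0.12 (adjusted p = 0.88), Sec13 at 0.16 (adjusted p = 0.84), Ndc1 at -0.52 (adjusted p = 0.34) and Nupl2, its sign turned, at 0.20 (adjusted p = 0.73).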

How the data were processed

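RNA from 4 wild type and 4 dnBrg1 E15.5 lenses was amplified from 50 ng of total RNA on the NuGEN platform and hybridized to Affymetrix mouse expression arrays, 1 per sample. Samples were grouped by the genotype in their labels, and the study calls them biological replicates. The authors normalized the arrays with robust multichip average (RMA, of unstated version) and deposited linear intensities, which run from 3.64 to 28468.2. RMA makes the arrays' distributions alike, so a change shared by most transcripts is removed. The deposited intensities were taken to log2.

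After 64 control probe sets were set aside, 22626 were fitted with limma 3.58.1 (lmFit and eBayes, R 4.3.3) for the difference of dnBrg1 from wild type, with no filter and no covariate. Probe sets were named by the platform annotation: 20380 name 1 gene, 691 several and 1555 none. Updating symbols left the 51 genes and 101 probe sets as they were. A probe set below 7.69, the median of all means, is called dim. Precision is limited by the number of arrays. The fit was tested on simulated data with independent noise and few changed probe sets. These held no control 3' minus 5' difference between groups, so the test does not bear on calls made under one.

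The rule for the members, the lists and the tests were chosen with earlier results of these data known. Named by rule were all lamina, LINC, torsin and Ran cycle genes, in the pore and in the transport group up to 6 called genes in each direction with the largest change, genes with opposite calls, and up to 3 called genes in each direction of the further list. Other genes, and the parts of the pore, were chosen after their values were seen. Alternatives were other scalings between arrays, an added constant of 16, bright probe sets alone, other variance models and array weights, leaving out single samples, dnBrg1 samples split by their description, a replicate block, the control covariate, a threshold of 0.01, and the test named in the methods together with SAM at a false discovery rate of 1%. The use of wild type replicates 1 and 4 alone was added after seeing the data. Promoter sequences are from RefSeq (GRCm38.p6).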

Additional observations from a re-analysis of the deposited data

Results flagged for a closer look

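Each probe set of the members and of the named further genes was checked in each group of 4 samples for a sample that stood far from the other 3 by Dixon's ratio. This held in 16 of 218 groups, where chance gives about 1 in 20. In wild type replicate 3, Nup54 was at 8.65 (others 7.74 to 7.78), Ipo9 at 9.73 (others 9.94 to 9.96) and the second Banf1 probe set at 9.45 (others 9.17 to 9.22). The values of Nup54 and Banf1 lay on the side of the dnBrg1 samples and that of Ipo9 on the opposite side. In wild type replicate 2, Sun1 was at 10.15 (others 9.79 to 9.85) and the dimmer Ipo8 probe set at 4.48 (others 5.58 to 5.70). Xpo1 in wild type replicate 1 was at 11.08 (others 11.40 to 11.42) with its second probe set.

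Among dnBrg1 samples, replicate 4 stood apart for Ran with 4 probe sets, at 13.15 (others 13.37 to 13.42), 13.16 (others 13.30 to 13.31), 13.11 (others 13.29 to 13.30) and 2.43 (others 2.54). It also did for Tor1a, at 9.58 (others 9.81 to 9.85), and for the dimmer Kpna1 probe set, at 9.70 (others 9.06 to 9.15). Nup188 was at 8.81 in replicate 1 (others 8.93 to 8.95) and a dim Tmpo probe set at 4.69 in replicate 2 (others 3.95 to 4.03). In replicate 3, the dimmer Nup85 probe set was at 10.05 (others 9.82 to 9.84) and a dim Xpo1 probe set at 7.66 (others 7.28 to 7.30).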

How the results depend on the processing

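The results depended most on the control covariate. With it, 5 member probe sets were called higher and 3 lower (29 and 14 without it), 2 member genes higher and 3 lower (10 and 9), and 3 genes of the further list higher and 1 lower (10 and 10). Of the 49 called probe sets that were followed (members and 6 further genes), 7 stayed called and 12 turned sign. The values among those followed that reversed, all with this covariate, were the third Banf1 probe set at -0.20, the dimmer Lmnb1 probe set at -0.01, Syne2 at 0.74, Nup107 at -0.12, Nup37 at 0.55, the dimmest Nup50 probe set at 0.91 (called, from -0.19 not called), Nup62 at 0.20 and 0.34, dimmer probe sets of Ranbp2 at 0.02, Ipo8 at -0.28, Kpnb1 at -0.28 and Ran at -0.18, and Ranbp1 at -0.19. Over all probe sets the median standard error was 0.29 with this covariate and 0.15 without it. The cause of the reversals was not tested, and the covariate almost follows the genotype.

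With only dnBrg1 replicates 1 and 2, 6 member probe sets and 5 member genes were called lower. In the further list, 5 genes were called higher. Over all probe sets this fit called 3040 higher and 2600 lower, against 4484 and 4745 with all samples. With only replicates 3 and 4, 9 member probe sets were called lower, and at an adjusted p under 0.01 there were 8. Over all probe sets these settings called 3111 higher and 2825 lower, and 3211 higher and 2820 lower. The fewer calls were thus not particular to the members. A stricter threshold makes fewer calls by construction. In both splits of the dnBrg1 samples the median standard error over all probe sets was 0.19, against 0.15 with all samples. A call can thus be lost in a split without a smaller difference, and the cause of the lost calls was not tested. When each sample was left out in turn, 24 to 33 member probe sets were called higher and 9 to 19 lower, 9 to 13 member genes higher and 6 to 12 lower, and 7 to 10 genes of the further list higher and 9 to 11 lower. Member probe sets called lower were 9 without wild type replicate 4, dnBrg1 replicate 1 or dnBrg1 replicate 3, the lowest count. The Gapdh control difference ranged from -1.13 to -0.67 and that of β-actin from -2.14 to -1.77. Without a dnBrg1 sample the Gapdh difference was -0.94 to -0.92 with an exact permutation p of 0.057. Of the 49 called probe sets, 38 were called in all 8 of these fits.

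Samples with the same replicate number showed no common deviation from their group means, with correlations of -0.19, -0.01, -0.05 and 0.16. Those of differently numbered samples ran from -0.16 to 0.20. With 4 samples a group, this cannot exclude a pairing. With the replicate number as a block, 25 member probe sets were called higher and 10 lower, 10 member genes higher and 8 lower, and 8 genes of the further list higher and 9 lower. Scaling, the added constant, the variance model, array weights, the restriction to bright probe sets, the mean over a gene's probe sets and the methods' t-test with SAM left these counts within 1.5 times. The mean over a gene's probe sets called 15 member genes higher and 9 lower, against 10 and 9 with the brightest probe set. The methods' t-test called 32 member probe sets higher and 20 lower before adjustment, 28 and 15 with SAM added, and 26 and 13 after Benjamini-Hochberg adjustment.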
